A study of Mus musculus with 28 samples.

Results

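Traf4, Mmrn2, Fbxw9, Camsap3, Ctc1, Arhgef33, Agap1 and Gpr157 are 8 mouse genes that hold, or lie nearest to, some of the strongest acetylation of histone H2B at lysine 120 (H2BK120ac) in the groups coded TD and TT. They were picked for large TD and TT values, so these values and their contrasts with ED and ET are given as a description, with no test. Regions were assigned to a gene when its transcription start site (TSS) was the nearest of a protein-coding gene and lay within 50 kb, or when they overlapped the gene. This gave 62 of 127646 regions, for 8 of 21488 protein-coding genes with a placed TSS. Of the 62 regions, 31 were included only because they lay inside a gene's span, 22 of them in Agap1, the longest of the 8 genes.

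The samples were mouse embryonic stem cells (mESCs), pluripotent cells that are derived from the early embryo and grown in culture. They were assayed by CUT&Tag, where a transposase tethered to an antibody cuts DNA next to a chromatin mark. All groups carried the genotype FOXD3-iKO, an inducible knockout of the forkhead transcription factor FOXD3, were grown in L2i and had a labelled treatment time of 24 h. Acetylation of histone H3 at lysine 27 (H3K27ac) was measured in asynchronous cells given 4-hydroxytamoxifen (4HT), a common inducer of such knockouts, and in cells given ethanol (EtOH), with 2 samples each. H2BK120ac had 3 samples in each of ED, ET, TD and TT. What these letters stand for is not written in the labels, which also do not name the driver of the recombinase or the number of clones. The 12 phase-sorted samples were not used here. The authors deposited 1 merged column per group, so no replicate spread can be computed, no test was run, and 95% counting intervals on ratios cover counting error only.

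H2BK120ac is placed on nucleosomes of active promoters and enhancers, where H3K27ac is also found, and lysine 120 of H2B is at the same time the site of the ubiquitin mark linked to transcription elongation. Acetylated regions away from a TSS are usual candidates for enhancers, although the nearest gene need not be the one they act on. The 8 genes share no single pathway. Their products are a signalling adaptor (Traf4), an extracellular matrix protein (Mmrn2), a ubiquitin ligase subunit (Fbxw9), a microtubule binding protein (Camsap3), a telomere protein (Ctc1), regulators of small GTPases (Arhgef33 and Agap1) and an orphan receptor (Gpr157).

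Values are coverage scaled to sequencing depth (CPM) and averaged over a region. How bases without coverage entered this mean is not known. In each column the value found most often was taken to be 1 fragment, which is 0.445 in both ED and ET, 0.412 in TD and 0.415 in TT. For H3K27ac it is 0.165 in EtOH and 0.207 in 4HT. Its inverse implied depths of 2.25 M to 2.43 M fragments for H2BK120ac and 4.82 M to 6.08 M for H3K27ac. Fragment numbers below are values divided by that of 1 fragment in the same group. They are a mean depth over the region and not a count of the fragments in it. Some H2BK120ac values lie below that of 1 fragment, down to 0.25 of it. The targeted gene could not be checked, since the 2 regions inside Foxd3 held at most 0.807 in H2BK120ac and 0.224 in H3K27ac. All 10 pluripotent stem cell markers had a region of at least 5 fragments of H3K27ac in EtOH, with a median highest value of 6.41, against none of 9 fibroblast markers (median 0.309). Of 7 endothelial markers with a region, 1 had such a region (median 0.343). Over all genes the share with such a region was 26.9%, and the median highest value was 0.475.

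The promoter sequences are shown for Traf4, Fbxw9 and Ctc1, whose strong H2BK120ac lies at the TSS, and for Gpr157, whose strong H2BK120ac lies far upstream while its own TSS region held at most 2.89 fragments in any H2BK120ac group. They come from RefSeq on GRCm38.p6 and run 5′ to 3′ on the gene's strand from 250 bases before the TSS to 50 after it. Capitals mark every match, on either strand, to the motifs searched.
Traf4 (chr11:78165501-78165800, minus strand): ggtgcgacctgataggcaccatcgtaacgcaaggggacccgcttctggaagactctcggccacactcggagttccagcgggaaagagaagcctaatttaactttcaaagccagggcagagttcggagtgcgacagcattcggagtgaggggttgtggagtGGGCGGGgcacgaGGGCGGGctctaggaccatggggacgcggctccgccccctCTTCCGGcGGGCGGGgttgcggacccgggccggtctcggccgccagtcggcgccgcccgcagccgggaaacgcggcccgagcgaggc
Fbxw9 (chr8:85059869-85060168, plus strand): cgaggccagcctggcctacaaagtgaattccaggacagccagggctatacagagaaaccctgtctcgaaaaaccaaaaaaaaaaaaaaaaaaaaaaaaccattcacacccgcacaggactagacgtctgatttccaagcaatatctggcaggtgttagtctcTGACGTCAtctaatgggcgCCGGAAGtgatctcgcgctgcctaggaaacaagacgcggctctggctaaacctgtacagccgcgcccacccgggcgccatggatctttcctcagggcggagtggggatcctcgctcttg
Ctc1 (chr11:69015661-69015960, plus strand): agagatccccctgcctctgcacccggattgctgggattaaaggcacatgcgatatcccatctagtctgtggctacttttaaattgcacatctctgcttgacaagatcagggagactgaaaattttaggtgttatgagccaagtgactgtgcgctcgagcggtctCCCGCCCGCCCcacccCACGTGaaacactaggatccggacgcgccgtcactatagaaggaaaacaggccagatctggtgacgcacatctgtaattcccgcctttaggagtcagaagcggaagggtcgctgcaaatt
Gpr157 (chr4:150087253-150087552, plus strand): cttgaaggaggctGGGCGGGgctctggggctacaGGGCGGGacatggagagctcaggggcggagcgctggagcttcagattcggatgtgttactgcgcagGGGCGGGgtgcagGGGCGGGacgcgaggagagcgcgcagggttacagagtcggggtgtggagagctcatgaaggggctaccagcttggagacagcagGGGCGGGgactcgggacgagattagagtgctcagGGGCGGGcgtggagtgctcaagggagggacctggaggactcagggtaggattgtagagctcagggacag

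The Traf4 window held 3 copies of the SP and KLF motif GGGCGGG, from bases 161, 174 and 222, and 1 ETS motif CCGGAAG from base 214 on the opposite strand. The Fbxw9 window held the cyclic AMP response element TGACGTCA from base 163 and an ETS motif from base 182. The Ctc1 window held 2 overlapping GGGCGGG matches on the opposite strand, from bases 165 and 169, and an E-box CACGTG from base 181. Both GGGCGGG matches end just before the region over the Ctc1 TSS begins. That region covers 124 of the 300 bases of its window, against 197 in Fbxw9 and all 300 in Traf4. The Gpr157 window held 6 copies of GGGCGGG, and Agap1, whose TSS region held at most 2.2 fragments, held 3. GGGCGGG is common, with a match in 33.9% of 21262 promoter windows of the same length. TGACGTCA was found in 2.23% of them, CACGTG in 7.84% and CCGGAAG in 11.6%. The other motifs searched were the p53 response element (a single 10-base unit), AP-1 TGANTCA, forkhead TGTTTAC, the NRF1 motif, the CCAAT box and TATAAA, which matched 7.37%, 6.99%, 3.01%, 1.33%, 38.2% and 12.6% of windows. None of these letters occurred in the 6 windows matched to the 8 genes, and Camsap3 and Mmrn2 were not matched. Only in Traf4 and Fbxw9 does the region with the strongest TD and TT coverage overlap the window. The strongest regions of Mmrn2, Camsap3, Ctc1, Arhgef33, Agap1 and Gpr157 lie outside these windows and were not searched. Whether they hold any of the motifs is therefore not known.

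The GC content of the windows differed widely among the 6 genes. It was 68.0% in Traf4, 65.7% in Gpr157 and 80.0% in Agap1, against 52.7% in Fbxw9 and in Ctc1 and 43.3% in Arhgef33. The median of all windows was 56.3%. Agap1 had 50 CpG dinucleotides and Traf4 33, against 17 in Fbxw9, 16 in Ctc1 and 2 in Arhgef33. The median of all windows was 13. The promoters with strong H2BK120ac were therefore neither the richest nor the poorest in CpG among the 6.

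In each gene the region with the highest mean of TD and TT is called its lead region. On the log2(value + 0.4) scale, TD exceeded ED by at least 2-fold at all 8 leads, and so did TT over ET. Over all regions with a mean of at least 5 fragments over the 4 groups (2782 regions, called well covered), the share past 2-fold in TD was 55.1% upward and 18.5% downward. In TT against ET 49.6% were higher and 21.6% lower. The choice of the genes fixes their count of 8, so nothing is read from it. The median log2 fold of the leads was 4.54 in TD against ED, beside 1.28 over well-covered regions, and 3.62 in TT against ET, beside 0.96.

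**Figure D1:**
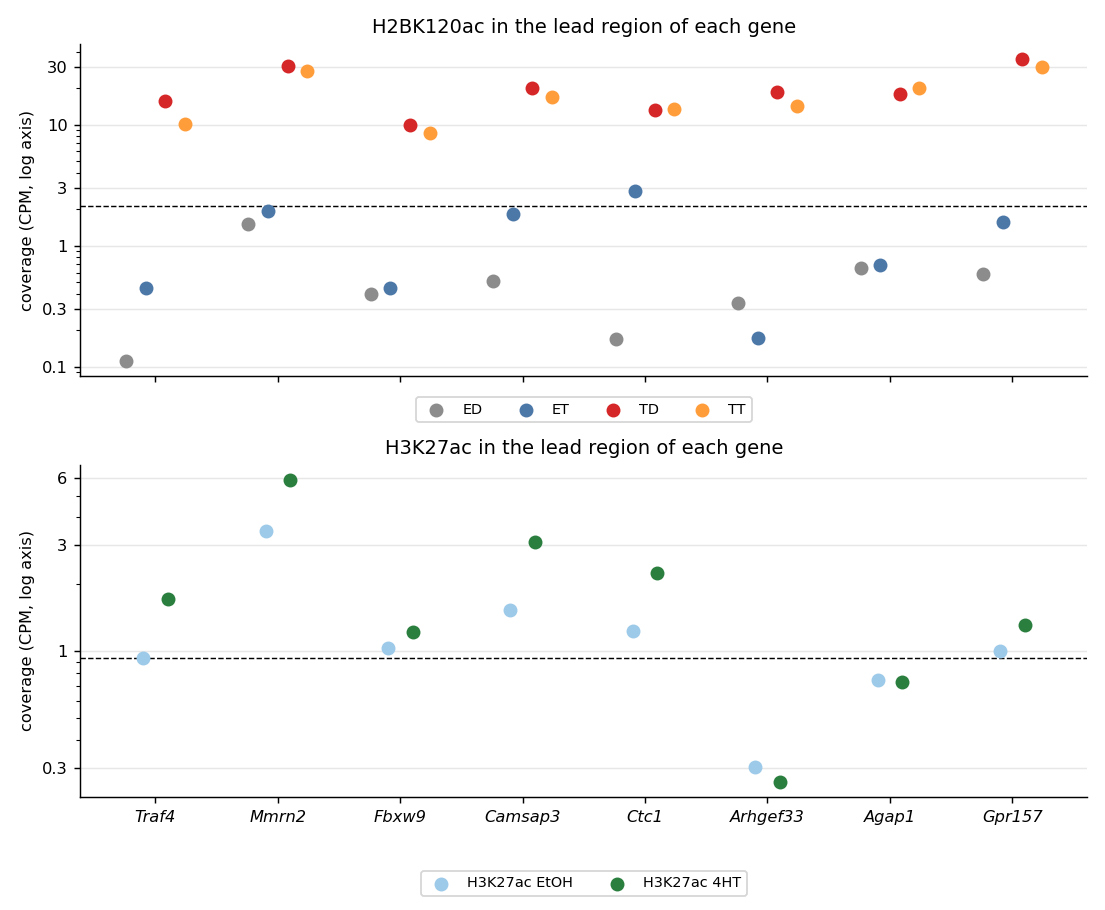
Coverage (CPM, log axis) of the lead region of each gene in the 4 H2BK120ac groups (upper plot) and in both H3K27ac groups (lower plot), 1 merged value per group. Dashed lines mark 5 fragments (2.15 for H2BK120ac, 0.93 for H3K27ac). TD and TT sit between 8.48 and 34.7, and ED and ET between 0.111 and 2.83.

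Traf4 encodes a TRAF family adaptor with a RING domain that acts downstream of several receptors and in cell junctions, and its human counterpart has been described as responsive to p53. The lead region covers the TSS (chr11:78165408-78165968, 561 bp, mm10) and had 0.111 in ED and 0.445 in ET, against 15.6 in TD and 10.2 in TT. As mean depth, this was 0.25 of a fragment in ED and 1 fragment in ET, against 37.9 fragments in TD and 24.5 in TT. The ratio of TD to ED was 140, with a counting interval from 9.07 that has no upper end, and the ratio of TT to ET was 22.8 (3.81 to 956). Inside the gene, a region 1403 bp from the TSS had 0.334 in ED and no coverage in ET, against 1.43 in TD and 1.09 in TT. The other region, 6124 bp away, stood at the value of 1 fragment in each of the 4 groups. The strong signal of Traf4 was thus limited to its TSS region, which held 94.1% of the gene's TD coverage summed as value times width.

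Fbxw9 encodes an F-box protein with WD repeats, a type of protein that brings substrates to SCF ubiquitin ligases. It had 1 region, which covers the TSS and the first part of the gene (chr8:85059972-85060730, 759 bp). H2BK120ac was 0.398 in ED and 0.445 in ET, against 9.90 in TD and 8.48 in TT. This was the weakest lead of the 8 in TD and in TT, yet it stood at about 1 fragment in ED and ET. The ratio was 24.8 (3.62 to 913) in TD against ED and 19.0 (2.98 to 772) in TT against ET.

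Ctc1 encodes a subunit of the CST complex, which binds single-stranded DNA and helps replicate telomeres. It had 2 regions of nearly equal strength. The region over the TSS (chr11:69015837-69016431, 595 bp) had 0.992 in ED and 1.27 in ET, against 12.9 in TD and 13.1 in TT. The lead region inside the gene, 10749 bp from the TSS (chr11:69026660-69026800, 141 bp), had 0.169 in ED and 2.83 in ET, against 13.2 in TD and 13.5 in TT. Another region inside the gene, 12972 bp from the TSS, had no coverage in ED and 0.747 in ET, against 3.50 in TD and 3.71 in TT. TD and TT lay close together in these 3 regions, and ET stood above ED in each. In the gene's remaining regions, which were not well covered, ET lay below ED. It was 0.445 against 0.595 at 3319 bp upstream of the TSS, and no coverage against 0.940 at 20077 bp downstream. Only at the lead did the counting interval of ET against ED exclude 1. The ratio of TT to ET at the lead was 4.78 (2.12 to 14.95), the smallest of the 8, and that of TD to ED was 77.9, with a counting interval from 7.57 that has no upper end.

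Mmrn2 encodes multimerin 2, a protein of the extracellular matrix around endothelial cells. Its lead region lies inside the gene, 2817 bp from the TSS (chr14:34378321-34379377), and at 1057 bp was the widest of the 8. H2BK120ac was 1.52 in ED and 1.94 in ET, against 30.7 in TD and 27.6 in TT, which ranked 6 of all 127646 regions in TD and 4 in TT. The ratio was 20.2 (7.61 to 115) in TD against ED and 14.3 (5.82 to 58.9) in TT against ET. A region of 112 bp at 513 bp from the TSS had 0.575 in ED and 2.25 in ET, against 12.6 in TD and 13.2 in TT. The last region, 25713 bp away, had 0.627 in ED and no coverage in the other 3 groups. The lead overlaps no protein-coding gene other than Mmrn2, which by itself assigns it to Mmrn2. By distance alone the assignment would be close. The TSS of Sncg, the gene of gamma-synuclein, lies 3652 bp from the lead region, under 1 kb farther than that of Mmrn2. None of the 7 endothelial markers with a region had a well-covered lead region in H2BK120ac.

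Camsap3 encodes a protein that caps and stabilises the minus ends of microtubules that are not anchored at the centrosome. The lead region lies inside the gene, 12103 bp from the TSS (chr8:3599340-3599492, 153 bp), and had 0.513 in ED and 1.82 in ET, against 20.2 in TD and 16.9 in TT. Upstream of it in the same gene, a region of 876 bp had 0.416, 1.11, 6.48 and 6.12 in ED, ET, TD and TT. Beside that one, a region of 146 bp had 0.445, 1.09, 3.47 and 3.69 in the same order. One more region near the 3′ end of the gene, whose nearest TSS is that of Xab2, had 0.445 in ED and ET, 3.19 in TD and 3.13 in TT. The strongest coverage was therefore spread over several regions in the body of the gene. By contrast, the region of 1320 bp over the TSS had 0.445 in ED and 0.445 in ET, against 1.15 in TD and 0.415 in TT, at most 2.79 fragments. The ratio at the lead was 39.3 (7.76 to 1826) in TD against ED and 9.25 (3.46 to 36.7) in TT against ET.

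Arhgef33 belongs to a family of guanine nucleotide exchange factors, which switch on small GTPases. Of its 9 regions, all inside the gene, 1 was strong. It lies 46574 bp from the TSS (chr17:80353981-80354180, 200 bp) and had 0.334 in ED and 0.171 in ET, against 18.6 in TD and 14.2 in TT. Both ED and ET were below 1 fragment, against 45.3 fragments in TD and 34.2 in TT. The other 8 regions reached at most 0.638 in TD and 0.516 in TT, and 3 of the 9 had no coverage in TD and 6 none in TT. The ratio was 55.8 (7.10 to 1680) in TD against ED. In TT against ET it was 82.7, with an interval from 8.13 that has no upper end. No region covered the TSS of this gene.

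Agap1 encodes an ARF GTPase activating protein that acts in endosomal traffic. Among its 27 regions again 1 was strong. It lies inside the gene, 58555 bp from the TSS (chr1:89513366-89513595, 230 bp), and had 0.659 in ED and 0.695 in ET, against 17.8 in TD and 20.1 in TT. The other 26 regions reached at most 1.29 in TD and 1.16 in TT, with medians of 0.412 and 0.402. The region over the TSS had 0.461 in ED and 0.445 in ET, against 0.388 in TD and 0.911 in TT. The ratio at the lead was 27.04 (6.77 to 1607) in TD against ED and 29.0 (5.99 to 194) in TT against ET.

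Gpr157 encodes an orphan G protein-coupled receptor that has been studied in the primary cilium of neural progenitors in mice. Its strong coverage lay in a cluster of 3 regions upstream of the gene and outside annotated protein-coding genes. The lead region, 38235 bp from the TSS (chr4:150048557-150049268, 712 bp), had 0.587 in ED and 1.58 in ET, against 34.7 in TD and 29.8 in TT, and ranked 2 of all regions in TD and 3 in TT. To its left, a region of 137 bp (chr4:150048162-150048298) had 0.484 in ED and 1.32 in ET, against 23.3 in TD and 18.4 in TT. To its right, a region of 155 bp (chr4:150049754-150049908) had no coverage in ED and 0.111 in ET, against 19.3 in TD and 15.8 in TT. All 3 were high in TD and TT and at or below 3.54 fragments in ED and ET. The region over the TSS itself had 0.453 in ED and 0.479 in ET, against 0.447 in TD and 1.20 in TT, which is 1.02 to 2.89 fragments. The next nearest TSS to the lead region, that of H6pd, lies 45321 bp away, so the distances to both genes were of the same order. The ratio was 59.2 (13.6 to 3105) in TD against ED and 18.9 (6.27 to 63.2) in TT against ET.

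**Figure D2:**
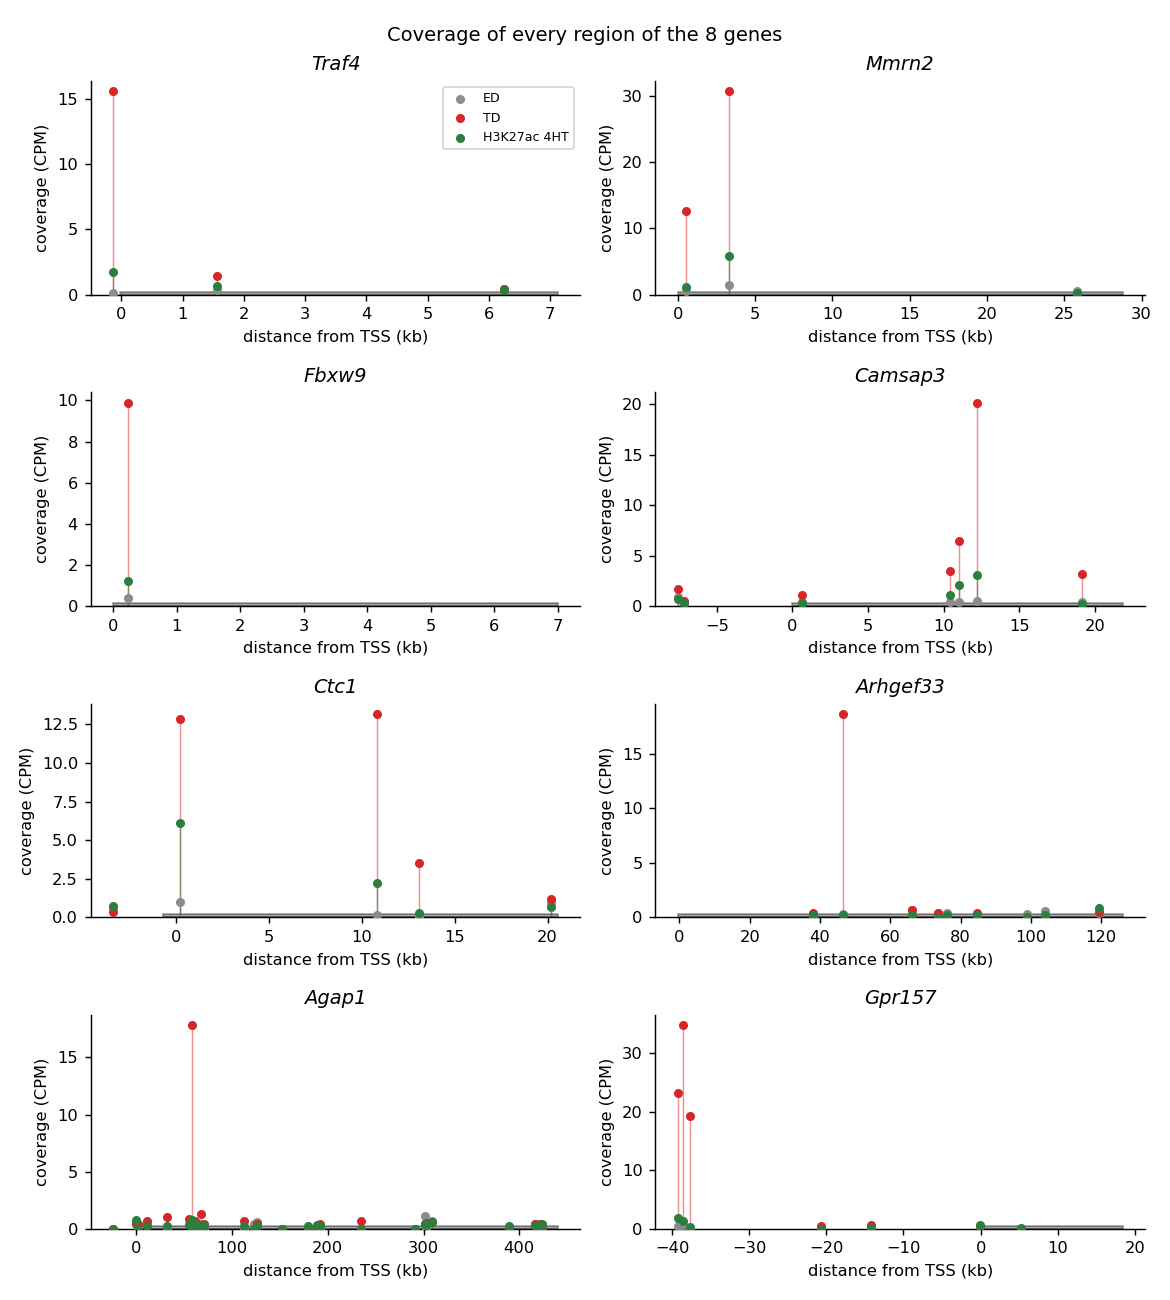
Coverage (CPM) of all 62 regions in ED, TD and H3K27ac 4HT against distance from the TSS in the direction of transcription (kb), with the gene's span as a grey bar. Traf4, Fbxw9 and Ctc1 have strong TD coverage at the TSS, Camsap3, Arhgef33 and Agap1 inside the gene, and Gpr157 near 38 kb upstream.

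Strong H2BK120ac thus occupied few regions of each gene. Of the 62 regions 14 were well covered in H2BK120ac, with 0 to 1.52 in ED and 0.111 to 2.83 in ET, so they passed this limit through TD and TT and their folds had to be large. Of these 14, 11 lay in the span of one of the genes, 3 of them covering a TSS, and the other 3 were the cluster upstream of Gpr157. The other 48 regions had medians of 0.392 in ED and 0.445 in ET, against 0.412 in TD and 0.415 in TT, all near 1 fragment. The lead region held between 17.6% (Ctc1) and 100% (Fbxw9, with a single region) of a gene's TD coverage, with a median of 77.5%. In Ctc1 and in Camsap3 (25.5%) narrow lead regions stood beside wider regions of the same gene. In ED, by value times width, the lead region of Camsap3 held 4.78%, that of Ctc1 2.67% and that of Traf4 22.6%. ED values were low throughout, so these shares depend much on region width. By value alone they were 14.9%, 6.28% and 12.5%.

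The 8 genes were part of a larger set of equally strong regions. Counting every region at or above the weakest lead in both groups (9.90 in TD and 8.48 in TT) gave 171 regions with 147 nearest genes, and 12 of the 171 belonged to the 8 genes. Over the 171 regions the medians were 1.35 in ED and 1.99 in ET, against 13.9 in TD and 11.9 in TT. The leads had medians of 0.456 in ED and 1.14 in ET, against 18.2 in TD and 15.5 in TT. Of the 171 regions 16.4% lay within 1 kb of a TSS, and of the 8 leads those of Traf4 and Fbxw9 did.

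**Figure D3:**
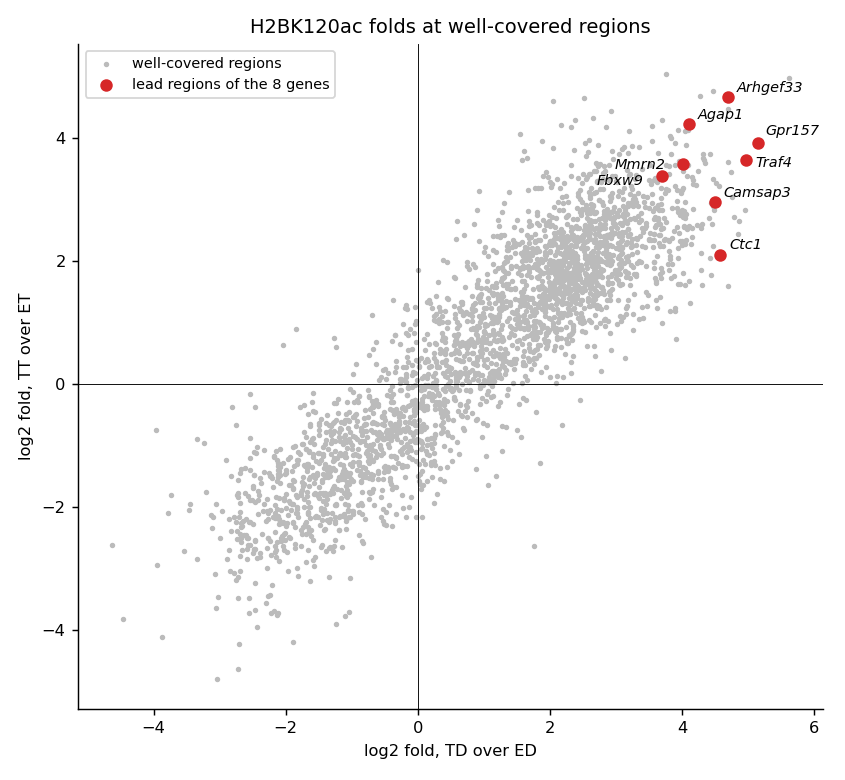
Log2 folds of H2BK120ac, TD over ED on the horizontal axis and TT over ET on the vertical axis, for 2782 well-covered regions (grey) and the 8 lead regions (red). The leads lie between 3.69 and 5.15 in TD over ED, and between 2.11 (Ctc1) and 4.67 (Arhgef33) in TT over ET.

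TT and TD differed by less than 2-fold at every lead. The genes were picked for large values in both groups, and a lead has the highest mean of both, which favours similar values, so nothing is read from this count. None of the 8 leads was past 2-fold in either direction, where 2.48% of well-covered regions were higher and 5.75% lower. The log2 fold ranged from -0.60 in Traf4 to 0.17 in Agap1, with a median of -0.22 beside -0.17 over well-covered regions. The ratio was 0.653 (0.384 to 1.13) in Traf4 and 1.13 (0.747 to 1.77) in Agap1, and all 8 intervals include 1. The folds of Ctc1 (0.04) and Agap1 were positive and the other 6 negative. After quantile normalization those of Mmrn2 (0.10) and Camsap3 (0.02) were positive too, and the median was -0.01.

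Differences between ET and ED rested on few fragments. The leads of Camsap3, Ctc1 and Gpr157 were at least 2-fold higher in ET than in ED and none was lower, 3 of 8, where 10.4% of well-covered regions were higher and 3.85% lower. The log2 folds were 2.50 in Ctc1, 1.28 in Camsap3 and 1.003 in Gpr157. In Ctc1 ET held 6.35 fragments against 0.38 in ED, a ratio of 16.7 with a counting interval from 1.18 that has no upper end. The intervals of the other 7 leads include 1, and with the pseudocount doubled only Ctc1 stayed past 2-fold. Arhgef33 had the single negative fold, -0.36, on values below 1 fragment in both groups.

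H3K27ac, which was not used to pick the genes, spanned 0.259 to 5.90 in 4HT at the leads. The lead of Mmrn2 had 3.48 in EtOH and 5.90 in 4HT, the highest of the 8 in both. The leads of Camsap3 (1.54 and 3.11), Ctc1 (1.24 and 2.25), Traf4 (0.937 and 1.72), Gpr157 (1.002 and 1.31) and Fbxw9 (1.04 and 1.22) followed in the order of 4HT values. Agap1 had 0.746 and 0.728, and Arhgef33 had 0.302 and 0.259, which is 1.83 fragments in EtOH and 1.25 in 4HT. Arhgef33 thus ranked 42 of 127646 regions in H2BK120ac TD and 51314 in H3K27ac 4HT. Agap1 ranked 50 in TD and 19844 in H3K27ac 4HT, and Gpr157 ranked 2 and 10491. The order of Traf4, Gpr157 and Fbxw9 rests on 8.31, 6.33 and 5.89 fragments in 4HT. Over the 171 equally strong regions, H3K27ac 4HT had a median of 2.65 and quartiles of 1.17 and 4.67, so Arhgef33 and Agap1 lay below the lower quartile and Mmrn2 above the upper. The marks come from tables normalized apart, so a CPM level in one is not comparable with a level in the other.

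**Figure D4:**
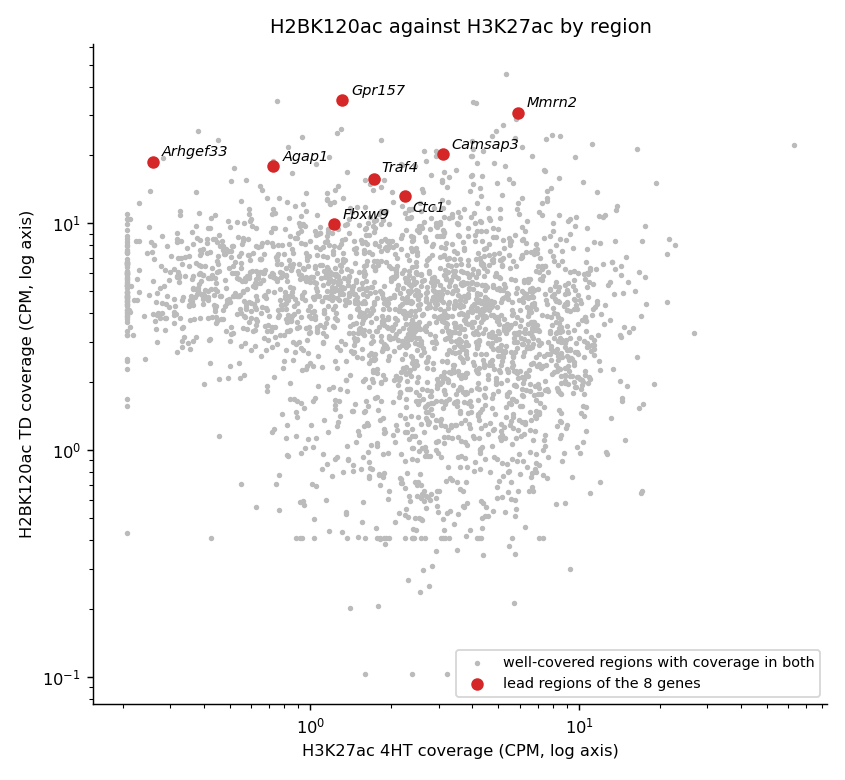
H2BK120ac TD coverage against H3K27ac 4HT coverage (CPM, both axes log) for well-covered H2BK120ac regions with coverage in both (grey) and the 8 lead regions (red), with each axis normalized apart. At TD values of 9.90 to 34.7, the leads span H3K27ac 4HT values from 0.259 (Arhgef33) to 5.90 (Mmrn2).

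The region of a gene with the highest mean of EtOH and 4HT in H3K27ac was not always its lead. In Traf4, Mmrn2, Fbxw9 and Camsap3 it was, although in EtOH alone the Camsap3 region of 876 bp (2.28) stood above the lead (1.54). In Ctc1 it was the region over the TSS, with 3.26 in EtOH and 6.13 in 4HT, about as high in H2BK120ac as the lead. In Gpr157 it was the region of 137 bp beside the lead (0.992 and 1.83), although in EtOH alone the lead was marginally higher (1.002). In Arhgef33 and Agap1 it lay far from the lead, 119282 bp and 309148 bp from the TSS, and there TD was 0.514 and 0.571. The Agap1 region had 1.04 in EtOH and 0.556 in 4HT, so in 4HT alone it lay below the lead (0.728) and the TSS region (0.732). In the right-hand region of the Gpr157 cluster, the one closest to the TSS, H3K27ac was 0.579 in EtOH and 0.283 in 4HT, where TD was 19.3. Of the 14 well-covered H2BK120ac regions of the 8 genes, 11 were also well covered in H3K27ac (mean of at least 0.93), beside 75.4% of all 2782. The 3 that were not are the leads of Arhgef33 and Agap1 and the right-hand region of Gpr157.

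H3K27ac in 4HT against EtOH asked whether 4HT in these FOXD3-iKO cells goes with a difference at these genes. None of the 8 leads was 2-fold higher or lower on the log2(value + 0.2) scale, where 7.68% of 13807 well-covered H3K27ac regions were higher and 0.739% lower. Only 6 of the 8 leads were themselves well covered in H3K27ac. Those of Arhgef33 and Agap1 were not, so they have no like background here. The leads of Traf4, Mmrn2, Fbxw9, Camsap3, Ctc1 and Gpr157 had positive log2 folds, from 0.20 in Fbxw9 (-0.04 after quantile normalization) to 0.93 in Camsap3, and Arhgef33 (-0.13) and Agap1 (-0.03) had negative ones. The median over all 8 leads was 0.53, and 0.21 after quantile normalization. It includes the low folds of Arhgef33 and Agap1, so it is not on a par with the 0.33 over well-covered regions. Over the 171 strong regions the median was 0.49. Among well-covered regions, the folds of the 6 well-covered leads stood between percentile 38.5 (Fbxw9) and 90.2 (Camsap3). The ratio at the Camsap3 lead was 2.02 (0.861 to 5.44) and at the Mmrn2 lead 1.70 (0.920 to 3.11), and all 8 intervals include 1. Of the 11 regions of the 8 genes that were well covered in H3K27ac, only the Ctc1 TSS region had an interval that excluded 1. Its ratio was 1.88 (1.04 to 3.51), with no allowance for the number of regions looked at. The upper ends of the intervals at the leads ranged from 3.11 in Mmrn2 to 12.1 in Arhgef33. The H3K27ac groups and the groups coded TD and ED were not shown by the labels to be the same contrast.

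**Figure D5:**
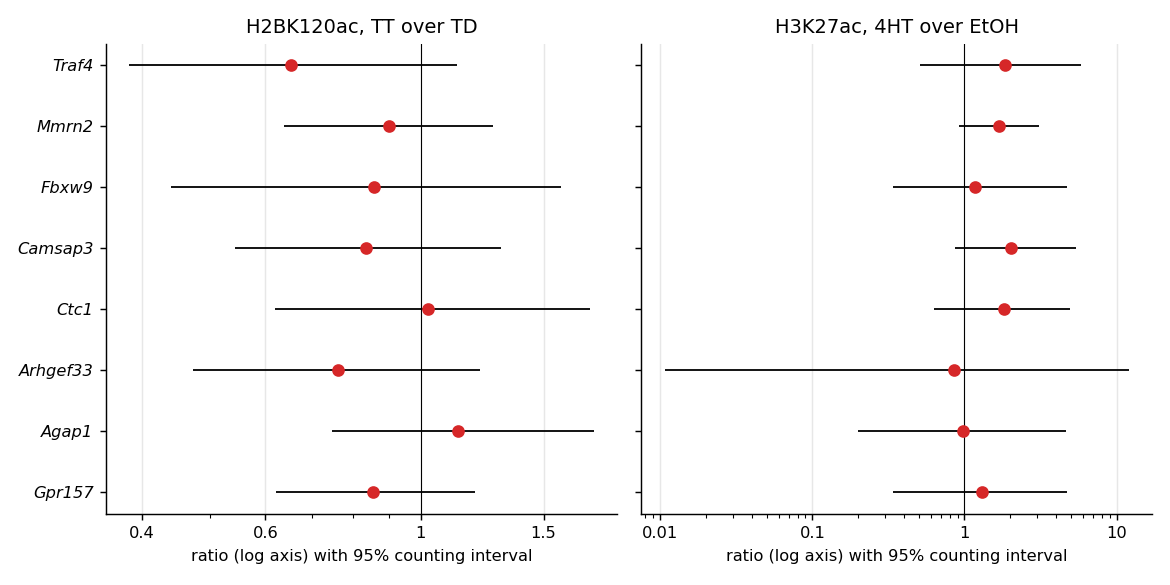
Ratio of TT to TD in H2BK120ac (left) and of 4HT to EtOH in H3K27ac (right) at the lead region of each gene, with 95% counting intervals (lines, log axes). All intervals include 1, and the ratios run from 0.653 (Traf4) to 1.13 (Agap1) on the left and from 0.858 (Arhgef33) to 2.02 (Camsap3) on the right.

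Genes with the most similar H2BK120ac pattern were found by the Euclidean distance of log2(value + 0.4) over ED, ET, TD and TT between lead regions, among 17686 genes with a region. For Arhgef33 the nearest was Cdkn1a, which encodes the p21 inhibitor of cyclin-dependent kinases (distance 0.66), with 0.596 in ED and 0.364 in ET, against 15.9 in TD and 12.8 in TT, and then Nceh1 (0.90). For Mmrn2 they were Atp9a (0.35) and Ppp1r21 (0.46), and the same 2 genes in the other order were nearest to Gpr157 (0.80 and 0.91). For Fbxw9 they were Ltbp2 (0.16) and 1700013F07Rik (0.27), and for Traf4 Cd81 (0.69) and Wdr38 (0.72). Camsap3 was closest to Tmem131 (0.47) and Gatad2a (0.57), Ctc1 to Notch1 (0.80) and Ccdc113 (0.81), and Agap1 to Nmral1 (0.46) and Sema4b (0.52). In H3K27ac, which this distance does not use, Ltbp2 had 0.165 in EtOH and 0.363 in 4HT, below the 1.04 and 1.22 of Fbxw9. Atp9a had 0.690 and 0.752, below the 3.48 and 5.90 of Mmrn2, while Ppp1r21 had 3.58 and 4.04. Among the 8 genes themselves, Traf4 and Arhgef33 were closest (0.93) and Mmrn2 and Fbxw9 farthest apart (3.01).

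Relatives of the 8 genes were described from lists of TRAF, EMILIN and multimerin, F-box WD, CAMSAP, CST and shelterin, ARF GAP and orphan receptor genes, 61 genes in all, of which 58 had a region. Of these 58 genes, 5 had a well-covered lead region at least 2-fold higher in TD than in ED, and 1 had a lower one, beside 4.96% and 0.486% of all 17686 genes. In TT against ET 5 were higher, beside 4.61%, and none lower, beside 0.628%. The median log2 fold over the 58 genes was 0.21 in TD against ED, beside 0.21 over all genes. A lead region is chosen on TD and TT in every gene, which raises these folds. Whether it does so to the same degree in the lists as in all genes was not checked.

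Among ARF GTPase activating proteins Arfgap3 had 0.612 in ED and 5.94 in TD, and Arap2 had 0.502 and 2.93. Terf1, which encodes a shelterin protein bound to telomeric DNA, had 1.23 in ED and 4.94 in TD over its TSS. Fbxw7, the substrate receptor for cyclin E and MYC, had 1.63 in ED and 4.09 in TD. The orphan receptor gene Gpr107 had 3.30 in ED and 15.04 in TD with strong H3K27ac (14.9 in EtOH), while Gpr85 was the gene that was lower, at 3.58 in ED and 1.24 in TD. No gene of the TRAF (0 of 6), EMILIN and multimerin (0 of 4) or CAMSAP (0 of 2) lists had a well-covered lead region.

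Of 15 listed targets of p53, 12 had a well-covered lead region at least 2-fold higher in TD than in ED, and 12 in TT than in ET, beside the 4.96% and 4.61% of all genes. Their median log2 fold was 2.92 in TD against ED. Of the 10 pluripotent stem cell markers, 5 had such a lead region in TD and 4 in TT, with a median of 1.16 in TD against ED. Both lists were chosen with results of these data known, are no independent evidence and were not tested against the 8 genes. The leads of the p53 targets lay mostly at a TSS, such as that of Ccng1 (27.1 in TD), which encodes cyclin G1, and within 1 kb for Mdm2 (11.3), the ubiquitin ligase gene of the p53 feedback loop.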

How the data were processed

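CUT&Tag coverage was taken from the authors' deposited tables. Values are coverage signal, given as CPM per the file headers and names, in regions whose rule is not stated, and the authors merged the replicates into 1 column per group. The submitters' processing notes list mm10 and, for H3K27ac, featureCounts and DESeq2. Aligner and coverage program were not given in the sources used here. No value is 0, and a missing value was counted as 0. The absence of 0 would follow if bases without coverage were left out of a mean. Values below 1 fragment would not, so the averaging rule is not known and value times width is a rough sum. The planned limma fits need separate replicates and were not run.

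Folds used log2(value + pseudocount), with 0.4 for H2BK120ac and 0.2 for H3K27ac (the 25th percentile of positive values, to 1 digit), which understates changes of low regions. Counting intervals are 95% Clopper-Pearson intervals on the share of rounded pile-up, turned into ratios. They rest on reading the commonest value as 1 fragment and on treating mean depth as a count, whatever the width of a region. The calculation was tested on simulated pile-ups drawn as counts, which cannot show whether mean depth behaves as a count. TSS came from RefSeq promoters on GRCm38.p6 for 17491 genes. For 3997 others, the end of the gene's span nearest to a deposited TSS window within 5 kb was used. The window coordinates come from a deposited table of which nothing else was used. In all, 16 value columns that match no sample were left out. Exon and untranslated region annotation was not used here.

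The genes, lists and comparisons were chosen with earlier results of these data known. The list of relatives of Arhgef33 is not reported here and was left out of the counts. The text names the 8 genes, the 2 genes nearest in pattern to each, list genes past 2-fold with a well-covered lead region, and genes overlapping a lead region. Nearby TSS (Sncg, Xab2, H6pd) and the examples from the p53 list were named after their values were seen. Alternatives were other pseudocounts, scalings, treatments of missing values and sets of regions. Python 3.11.15, pandas 2.3.3 and SciPy 1.17.1 were used.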

Additional observations from a re-analysis of the deposited data

How the results depend on the processing

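No paired analysis was possible because the authors merged the replicates into 1 column per group, and for the same reason no replicate could be left out. The genes were picked for large TD and TT values, which by itself keeps their counts against ED and ET high, so nothing is read from those. The count of genes at least 2-fold higher ranged over all alternatives from 6 to 8 for TD against ED and from 7 to 8 for TT against ET. In ET against ED it was 3, rose to 4 with a halved pseudocount, fell to 2 with median scaling, to 1 with a doubled pseudocount, to 0 with means over all regions, over regions within 10 kb and over regions reaching the pseudocount, and to 1 where the lead was chosen by H3K27ac, an alternative added after the data were seen. In TT against TD and in H3K27ac it was 0 throughout. Large folds turned negative for Gpr157 in TD against ED with regions within 10 kb (-0.0068), which leaves out its upstream cluster, and for Agap1 with the lead chosen by H3K27ac (-0.11 for TD over ED, -0.71 for TT over ET). Among folds under 2-fold, signs also turned in TT against TD for Mmrn2 and Camsap3 (quantile normalization) and for Agap1 (-0.0021) and Gpr157 (0.68) with regions within 10 kb. In H3K27ac they turned for Fbxw9 (quantile normalization) and for Arhgef33 (0.24 to 0.91 with the other sets of regions). Of 360 single values 334 moved by less than their counting interval. Many of them could not move, since no lead had a missing value and Fbxw9 had a single region. The intervals are also wide, so nothing is read from this count. The lead's median share was 66.6% by value alone. The family lists had 6 genes higher in TD by means over kept regions, against 5. Depth limits ED and ET most, where the leads hold under 5 fragments apart from Ctc1 in ET.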
